A study of Mus musculus with 54 samples.

Results

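Transcription in the brain of control littermates was compared between mice given Cmpd60 and mice given vehicle, in 10 of the 54 samples of the series. The members were chosen by their labels: libraries s152, s153, s156, s157 and s158 for Cmpd60 and libraries s149, s150, s151, s154 and s155 for vehicle. All 10 mice were non-transgenic male littermates of the APPSWE-1349 line (APPSWE below) on a BL6 background, 6 to 7 months old per the study's design. They were housed singly and injected into the peritoneum once a day for 14 days, with either 22.5 mg/kg Cmpd60 or the DMSO, PEG400 and saline mixture alone, and were fasted overnight before tissue was taken. Each library is 1 animal, and the RNA is bulk poly(A) RNA of brain, with no region named in the sources. The series also holds kidney, heart and brain of 20-month-old mice on the same 14-day course, and brain of APPSWE mice, which carry a human amyloid precursor protein transgene with the Swedish mutation. The 10 APPSWE brain libraries (6 vehicle, 4 Cmpd60) shared the fit and its estimate of spread with the littermates. The comparison asks what the compound does to brain transcription without the amyloid transgene.

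HDAC1 and HDAC2 are zinc-dependent enzymes that remove acetyl groups from histone tails, and they act as the catalytic pair of the Sin3, NuRD and CoREST corepressor complexes. Loss of acetylation generally closes chromatin and lowers transcription, and in neurons both enzymes have been studied as brakes on genes of synaptic plasticity and memory. Cmpd60, also called Merck60 or BRD6929, is a benzamide inhibitor selective for this pair.

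The libraries held 25052335 (s157) to 37844133 (s150) counts on genes, with a median of 27703404. In s152 of the Cmpd60 group and s155 of the vehicle group, fewer genes were seen than in the other 8 libraries. At least 1 count was found for 15084 genes in s152 and 15044 in s155, against 18804 (s154) to 24821 (s158) in the others. Most of the missing genes were of low abundance. Of 1674 genes with a median of 2 to 5 CPM, 461 had 0 counts in s152 and 452 in s155, against 0 to 3 in each of the others, while 59 and 64 stood over 4 times the median, against 0 to 3. Of 2199 genes at 10 to 20 CPM, 12 and 17 were at 0 in s152 and s155, and 183 and 173 lay under 0.25 of the median, against 0 to 6 in the others. Of the 4747 genes over 50 CPM, 0 had 0 counts in any of the 10 libraries. Spearman correlations over the 10393 genes with a mean of at least 10 CPM ran from 0.967 to 0.988 among the other 8 libraries, and were 0.862 between s152 and s155. The principal component that took 40.9% of the variance placed s152 at -56.9 and s155 at 55.2 with the other 8 near 0, and the next, with 34.3%, set both apart from the rest. One of these libraries lies in each group and they deviate in opposite directions on that component, so the counts of genes and the list medians are given with and without them. For lists, "without both" means without s152 and s155. Group means of genes detected were 21766 ± 3915 (SD) with Cmpd60 and 19812 ± 3224 with vehicle, a difference of 1954 tested by a two-sided exact permutation test (p = 0.405, with 0.00794 the smallest p that 5 against 5 allows). The difference was 761.55 without s155, 1189.8 without s158, 3624 without s152, 2432 without s152 and s155, and 203.2 when genes with at least 10 counts were taken. In the other brain cohorts 15555 to 23402 genes (APPSWE) and 24939 to 28017 genes (20-month) were detected per library.

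**Figure D1:**
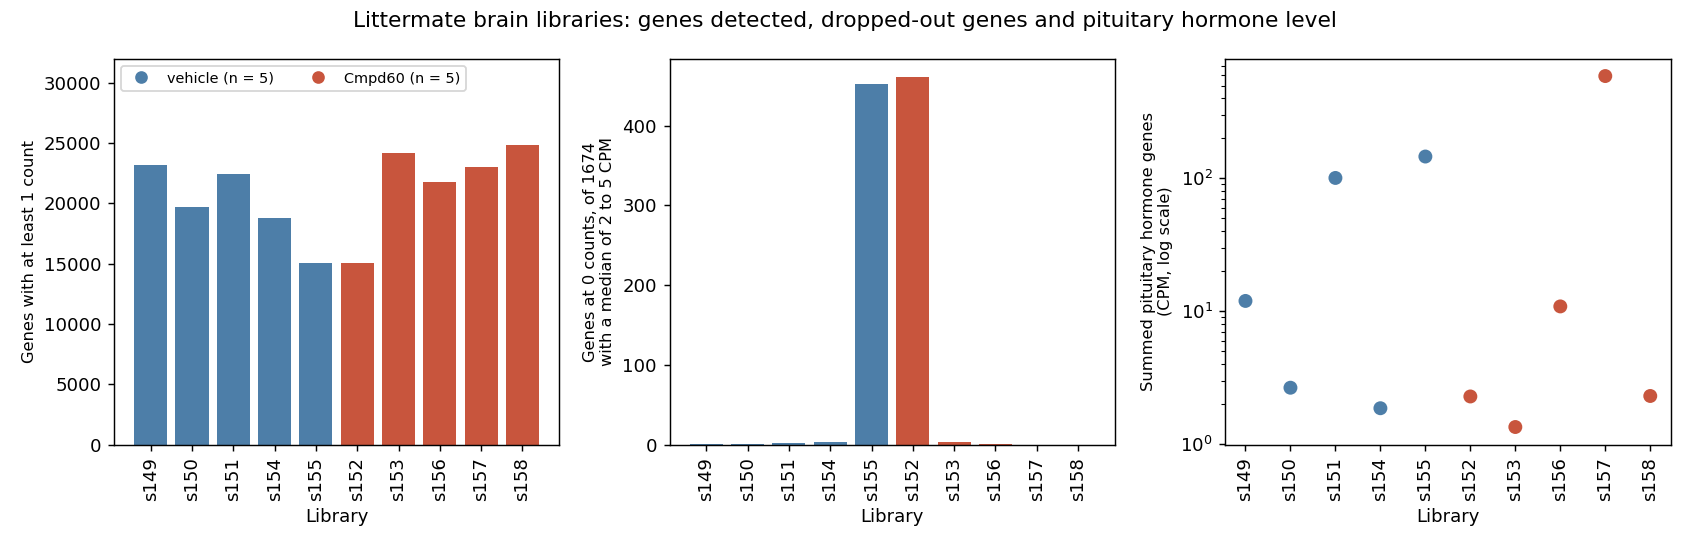
For each of the 10 littermate brain libraries (vehicle blue, Cmpd60 red), bars give genes detected and genes at 0 counts among 1674 genes of low abundance, and points give the summed CPM of the pituitary hormone genes on a log scale. Libraries s155 and s152 have the fewest genes (15044 and 15084) and the most at 0 (452 and 461), and s157, s155 and s151 have the highest hormone sums.

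Pituitary hormone genes also separated the libraries. Their summed level was 589 CPM in s157 of the Cmpd60 group, 146.1 in s155 and 101 in s151 of the vehicle group, and 1.34 to 11.9 CPM in the other 7. Marker genes of brain cell types and regions were also checked. All 12 neuronal markers were tested and had a mean of at least 10 CPM, led by the synaptic vesicle gene Snap25 at 2668 CPM in the vehicle group, as did all 15 oligodendrocyte and myelin genes and all 11 astrocyte genes. Markers of cortex and hippocampus, cerebellum, striatum, thalamus, hypothalamus, choroid plexus and brainstem had a summed level above 0 in every library. A sum above 0 does not show that the regional make-up was alike. Striatal sums ran from 851 (s152) to 1543 CPM (s150), and choroid plexus sums from 590 (s158) to 1308 CPM (s150). The Y-linked gene Ddx3y lay at 63.01 to 106 CPM and Xist, expressed from the inactive X chromosome of females, at 0 to 0.581 CPM, as in males. Of the 5 sex-linked genes checked, 3 were higher and 2 lower with Cmpd60 (median log2 fold change 0.11, 0.00 without s152 and s155), and 0 had p below 0.05.

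With Cmpd60, the astrocyte water channel gene Aqp4 was higher in all 5 libraries than in any vehicle library, and it had the smallest p among genes of at least 10 CPM. Of the other genes at that level with p below 0.01, 25 were higher and 18 lower. None of these differences passed the adjustment over all genes in edgeR. With edgeR's quasi-likelihood test and Benjamini-Hochberg adjustment over 23273 genes, 0 (0%) had an adjusted p below 0.05, and 875 (3.76%) had an unadjusted p below 0.05, of which 586 were higher and 289 lower. DESeq2 called 8 genes (717 with p below 0.05) and limma-voom 0 (678 with p below 0.05); 5 of the 8 had a mean below 0.1 CPM. At the cutoff of p below 0.01 that the study used for brain, 94 genes (0.404%) passed, fewer than the 233 that are 1% of the genes tested.

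Whatever their p, 12305 of all genes tested were higher and 10960 lower. At a mean of at least 10 CPM, 5300 were higher and 5093 lower. Among the 10393 genes with a mean of at least 10 CPM, 384 (3.69%) had p below 0.05, 204 higher and 180 lower, while below 10 CPM the split was 382 and 109. Of the 10393, 44 (0.423%) had p below 0.01, 26 higher and 18 lower (21 and 24 with DESeq2 size factors, 24 and 4 without s153). The groups did not overlap for 31 genes with Cmpd60 above vehicle (0.298%) and 32 with Cmpd60 below (0.308%), and 8 of the 26 and 2 of the 18 were among these. Of the 44 genes, 40 code for proteins, 2 are pseudogenes, 1 is noncoding and 1 has no symbol. Among the 26 higher genes, fold changes ran from 1.16 to 1.68 (Elovl2), apart from Amd2 at 3.22. They ran from 0.4997 to 0.843 for the 18 lower genes. Below 10 CPM, 50 genes had p below 0.01, and 47 of them had at least 1 library at 0 counts; the median standard error was 1.504 on the log2 scale there and 0.167 at 10 CPM or more.

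The libraries s152 and s155 held the extremes of the genes with p below 0.01. Library s152 was the highest of the 10 for 23 of the 26 higher genes, and s155 the lowest for 16 of them. For the 18 lower genes, s155 was the highest library for 13, while the lowest was s153 for 7 and s152 for 6. Over all 10393 genes, s152 was the highest library for 24.5% and s155 for 24.8%. The lowest library was s152 for 27.3%, s155 for 26.2% and s153 for 5.27%. With both left out, 26 genes of all tested and 15 of those at 10 CPM or more had p below 0.01 in edgeR, and 390 of all tested p below 0.05. Of the 44 genes, 44 kept their direction without these libraries and 6 kept p below 0.01: Aqp4, Gm10241, Kcnip3 and Cacnb4 among the higher, and Rps12-ps3 and Sumo2 among the lower. Leaving out 1 library at a time gave 21 (s155), 23 (s152), 28 (s150), 28 (s153), 29 (s154), 35 (s156), 56 (s149), 60 (s158), 81 (s151) and 116 (s157) such genes in place of 44. Over all genes tested the count of 94 became 42 without s155, 59 without s152, 60 without s150, 60 without s154, 62 without s153 and 157 without s157, and the count of 875 at p below 0.05 became 506 without s155. Genes past an adjusted p of 0.05 numbered 2 without s152 and 1 without s156: Rpl29 and ENSMUSG00000094446 in the first fit and the latter in the second, both with a mean below 10 CPM.

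Aqp4 (ENSMUSG00000024411) encodes the water channel of astrocyte endfeet and ranked highest by p among genes of at least 10 CPM. It stood at 123, 118, 134, 118 and 133 CPM in vehicle libraries s149, s150, s151, s154 and s155, and at 196, 179, 189, 174 and 145.1 CPM in Cmpd60 libraries s152, s153, s156, s157 and s158. Values of other genes keep these orders. The lowest Cmpd60 library, s158, lay above the highest vehicle library, s151. The log2 fold change was 0.499 ± 0.10 (SE; 95% interval 0.29 to 0.71), a fold change of 1.41, with an edgeR adjusted p = 0.406. Over the other settings the adjusted p ran from 0.0127 (DESeq2) to 1 (without s152 and s155), and the unadjusted p stayed below 0.01 in each of the 10 fits that left out 1 library and in the 16 other settings. Without s152 and s155 the log2 fold change was 0.48. In APPSWE brain it was 0.31 and in 20-month brain -0.07.

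Of the 11 astrocyte markers, 8 were higher and 3 lower. Their median log2 fold change was 0.02, beside 0.00 over all genes of at least 10 CPM, and 0.01 without both s152 and s155. It was -0.03 without s157 and also below 0 without s155. Aqp4 passed p below 0.01, and the glutamate transporter gene Slc1a2 (0.22) and the gap junction gene Gja1 (0.22) passed p below 0.05. Of all genes of at least 10 CPM, 0.423% passed p below 0.01 and 3.69% passed p below 0.05. Slc1a2 was highest in s156 (3053 CPM) and s153 (2849.8), and the other 3 Cmpd60 libraries (2067 to 2099.9) lay within the vehicle range of 1854 to 2383 CPM. The lipid elongase gene Elovl2 (0.75, and 0.49 without s152) and the endothelin receptor gene Ednrb (0.40, and 0.26 without s152), both expressed by astrocytes, were also among the 26 higher genes. They are not among the 11 markers and were picked after their values were seen. In bulk tissue, a difference in the number of cells of a type and a difference in RNA per cell cannot be told apart.

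Further genes of the higher set are given one by one, picked after their values were seen where they are not among the 10 with the smallest p. Kcnip3, a calcium sensor that binds voltage-gated potassium channels and DNA, stood at 107, 97.8, 126, 86.2 and 86.8 CPM with vehicle and 156, 131, 120.2, 133 and 129.8 CPM with Cmpd60. The groups overlapped through s151 alone, and s152 was highest. Its log2 fold change was 0.41 ± 0.11, and p stayed below 0.01 in each fit that left out 1 library. The potassium channel gene Kcna2 (0.28), the calcium channel subunit gene Cacnb4 (0.22) and the calcium-binding protein gene Cabp1 (0.29) were also in this set. The Cabp1 groups did not overlap, at 116, 112, 112, 106 and 113 CPM against 161, 132, 117, 144.3 and 129 CPM, while Kcna2 in s157 (439 CPM) lay below all vehicle libraries (449 to 503 CPM). The PACAP receptor gene Adcyap1r1 was higher by 0.27.

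The subunits of GABA-A receptors, the main inhibitory receptors of the brain, were more often higher, 10 of 15 tested, and the list median was 0.12 on the log2 scale. Without s152 and s155 it was 0.02. Glutamate receptor genes split evenly, 11 higher and 11 lower of 22 (median 0.01, 0.04 without both, above 0 in 16 of 26 other settings and below 0 with DESeq2 size factors), with Gria1, Gria3 and Grik1 at p below 0.05 and Grin1, the most abundant, at -0.06. The share with p below 0.05 over all genes of at least 10 CPM was 3.69%.

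Bhlhe41, a repressor of the circadian clock, stood at 44.7, 49.9, 48.05, 41.0 and 28.3 CPM with vehicle and 98.7, 57.0, 48.1, 56.8 and 58.4 CPM with Cmpd60. Library s152 lay far above the rest, and s155 was lowest. Its log2 fold change of 0.59 ± 0.16 was 0.38 without s152 and 0.26 without both libraries. The kinase gene Braf (0.39), the TBP-like factor gene Tbpl1 (0.43) and the nuclear import gene Kpna3 (0.31) were higher as well. Tbpl1 groups did not overlap, at 33.9 to 49.8 CPM against 51.7 to 71.5 CPM. Without s152 none of these 3 genes, Braf, Tbpl1 and Kpna3, kept p below 0.01. The long noncoding RNA gene Neat1, the scaffold of nuclear paraspeckles, was higher by 0.62, and by 0.34 without s152, while s157 (37.0 CPM) lay below 4 of the 5 vehicle libraries. The Wnt pathway receptor gene Lgr4 was higher by 0.47.

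Of 15 circadian clock genes, 11 were higher and 4 lower, with a median of 0.10 and 0.11 without s152 and s155. Bhlhe41 alone of the list passed p below 0.05. The PAR bZIP factor genes Tef and Hlf, the most abundant, differed by 0.10 and 0.17. The summed level of the list was 1399, 1584, 1528, 1458 and 1572 CPM with vehicle and 1578, 1619, 1615, 1633 and 1619 CPM with Cmpd60. The Cmpd60 values lay close together, and vehicle library s150 fell among them. The pseudogene Gm10241 (0.68) and the S-adenosylmethionine decarboxylase copy Amd2 (1.69) were also in the higher set. Whether they share reads with related genes was not checked, so their counts are uncertain. Amd2 had a mean of 5.49 CPM with vehicle and 17.7 CPM with Cmpd60, so it reached 10 CPM through the Cmpd60 group. Library s152 was highest for Amd2 at 39.1 CPM, while s158 (2.58 CPM) lay below every vehicle library. Without s152 the edgeR p of Amd2 was 0.041.

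In the lower set, the groups did not overlap for Pop4 and Cdk11b. Pop4 (ENSMUSG00000030423), a subunit of the ribonucleases P and MRP that process tRNA and rRNA, stood at 14.3, 15.3, 13.7, 17.4 and 29.6 CPM with vehicle and 9.93, 12.7, 12.0, 7.34 and 6.51 CPM with Cmpd60. Library s155 was highest, and s153 the highest of the Cmpd60 group. The log2 fold change was -0.90 ± 0.26, and -0.66 without s152 and s155. Cdk11b (ENSMUSG00000029062), a kinase that acts in transcription and splicing, stood at 103, 116, 93.0, 104 and 108 CPM with vehicle and 79.6, 84.3, 79.5, 84.3 and 91.0 CPM with Cmpd60. The highest Cmpd60 library, s158, lay just below the lowest vehicle library, s151. The log2 fold change was -0.33 ± 0.10, -0.30 without s152 and s155.

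**Figure D2:**
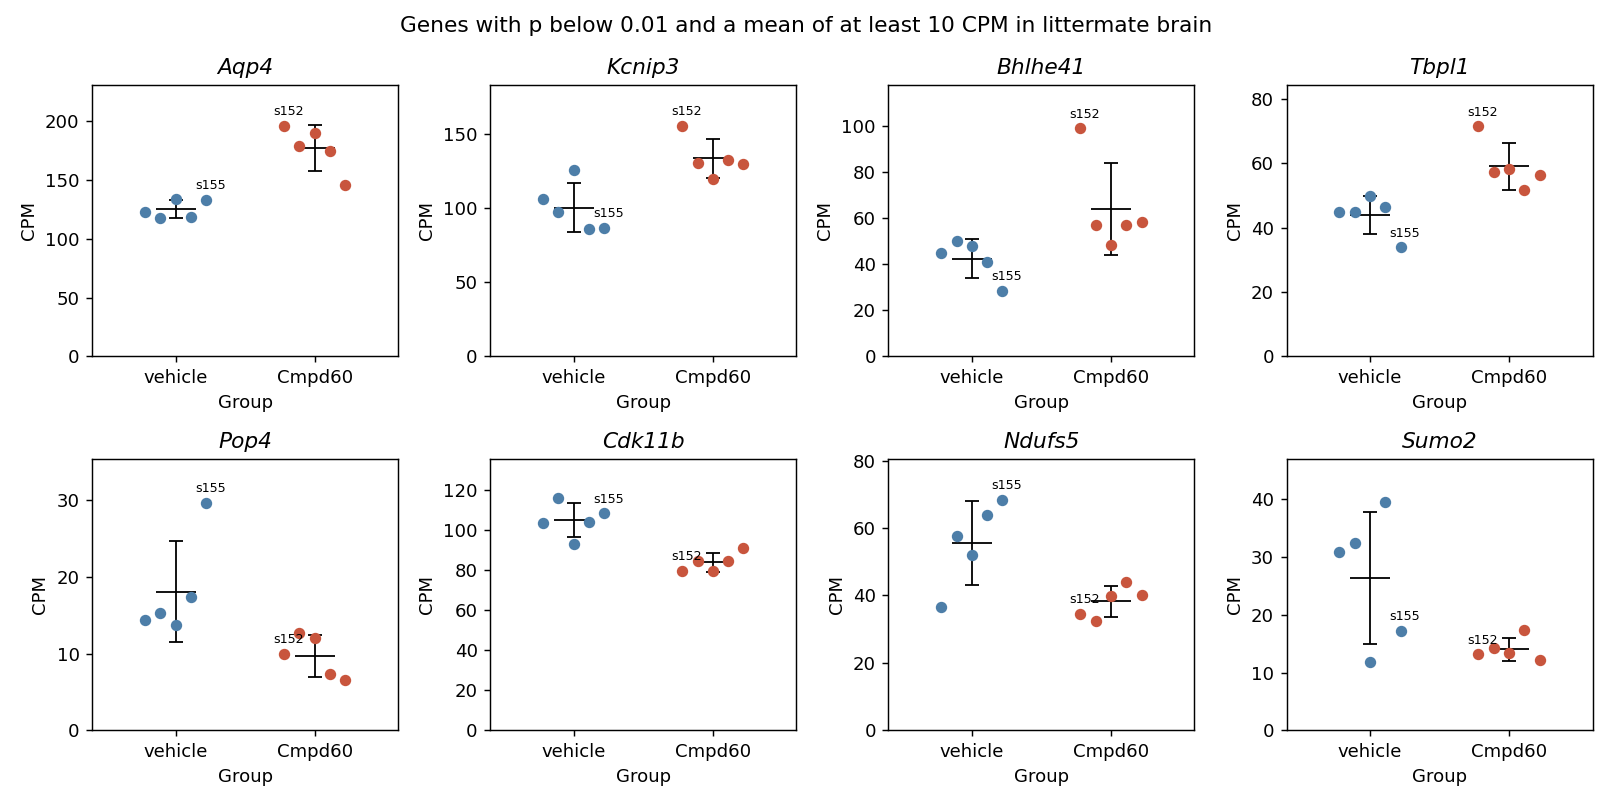
CPM of 8 genes in each littermate brain library, vehicle in blue and Cmpd60 in red, with the group mean (long bar) and SD (error bars, n = 5 per group) and with s152 and s155 labelled. For Aqp4, Tbpl1, Pop4 and Cdk11b the groups do not overlap; s152 has the highest value for Aqp4, Kcnip3, Bhlhe41 and Tbpl1, and s155 the highest for Pop4 and Ndufs5.

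Genes for oxidative phosphorylation encoded in the nucleus were more often lower with Cmpd60: 63 lower and 19 higher of 82 tested, with a median log2 fold change of -0.11 beside 0.02 over all genes tested. Without both s152 and s155 it was -0.14. At 10 CPM or more the list median was -0.09 and that of all genes 0.00. Of the 82, 2 had p below 0.01 and 6 below 0.05, beside 0.404% and 3.76% of all genes tested. The 6 were all lower: Ndufs5, Ndufb10, Ndufb7, Ndufa12 and Ndufv2 of complex I and Cox7a2l, an assembly factor of respiratory supercomplexes. Ndufs5 stood at 36.4, 57.6, 52.0, 63.8 and 68.3 CPM with vehicle and 34.5, 32.6, 40.0, 44.1 and 40.1 CPM with Cmpd60 (-0.54 ± 0.17). The groups overlapped through s149 alone. Ndufb10 stood at 87.3, 106, 95.5, 115 and 91.3 CPM with vehicle and 54.1, 69.2, 80.1, 90.4 and 84.8 CPM with Cmpd60 (-0.39 ± 0.13), with s152 the lowest and overlap through s157. In APPSWE brain both were lower as well, by log2 fold changes of -0.39 and -0.38. The most abundant members, the ATP synthase genes Atp5b and Atp5a1, differed by -0.05 and -0.01. The median was below 0 under all 26 other settings, from -0.15 without s149 to -0.07 without s153 among those that left out 1 library.

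Cytosolic ribosomal protein genes were also more often lower, 67 lower and 17 higher of 84 (median -0.11, -0.22 without s152 and s155, and -0.05 without s153). The median over all genes tested was 0.02. Of the 84, 6 were lower and 2 higher with p below 0.05, beside 3.76% of all genes tested. Rplp1, of the ribosomal stalk, was lower (-0.43 ± 0.15), and Rpl14, Rpl37a, Rps23, Rps25 and Rps26 were lower with p below 0.05. Rpl29 (4.22, the smallest p of the list) and Rps15a (0.26) were higher with p below 0.05. The most abundant, Rpl4 and Rpl3, differed by -0.11 and -0.20. The mitochondrial-genome genes went the other way, with 10 of 11 higher (median 0.10, 0.13 without both) and 0 with p below 0.05. The most abundant of them, mt-Co1 and mt-Cytb, differed by 0.15 and 0.10. These 3 lists varied by library within each group. Centred on each gene's mean over the 10 libraries, the median of the ribosomal list was -0.29 in s153 and -0.18 in s156, and 0.19 in s152, 0.20 in s154 and 0.17 in s150. For the mitochondrial-genome list it was 0.32 in s153, 0.31 in s156 and 0.23 in s149, the same libraries that were lowest for the nuclear list (-0.21, -0.12 and -0.11). Summed over the list, ribosomal genes came to 7964 ± 882 CPM with Cmpd60 and 8552.7 ± 627 CPM with vehicle, nuclear oxidative phosphorylation genes to 8231 ± 619 CPM with Cmpd60 and 8708 ± 236 CPM with vehicle, and mitochondrial-genome genes to 18427 ± 2727 CPM with Cmpd60 and 16793 ± 2045 CPM with vehicle (SD, n = 5). The part of RNA quality in these lists was not tested.

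Eef1b2, a translation elongation factor subunit, was lower (-0.38 ± 0.12; -0.24 without s155, which stood at 152 CPM), and also in APPSWE brain (-0.43). Sumo2, a protein modifier, stood at 30.8, 32.5, 11.8, 39.5 and 17.2 CPM with vehicle and 13.1, 14.3, 13.4, 17.3 and 12.1 CPM with Cmpd60. The 3 vehicle libraries s149, s150 and s154 were high, and s151 and s155 lay at the Cmpd60 level. Its log2 fold change was -0.91 ± 0.28; the pseudogene Rps12-ps3 differed by -1.001 ± 0.30, with s155 highest at 49.5 CPM, and by -0.57 without s155. Whether Sumo2, Rps12-ps3, Eef1b2 and Rplp1 share reads with related genes was not checked, so their counts are uncertain.

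The kinesin gene Kif5a, a motor of axonal transport, was the most abundant of the lower set at 3993 ± 378 CPM in vehicle and 3367 ± 144.9 CPM in Cmpd60 libraries (-0.25 ± 0.08). The groups overlapped through s151 at 3401 CPM. The dendritic adhesion gene Icam5 (-0.39), the actin-nucleating complex subunit gene Arpc3 (-0.35) and the cortactin gene Cttn (-0.29) were lower too. Scg5, a chaperone of prohormone processing, was lower (-0.61), and also in APPSWE brain (-0.90). Of the 44 genes, 5 (11.4%) had p below 0.01 in APPSWE brain, beside 129 (1.24%) of all 10393 genes of at least 10 CPM. They were Aqp4, Cacnb4, Eef1b2, Ndufb10 and Scg5, and both cohorts share the fit's estimate of spread.

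Transcripts of the drug targets did not separate the groups. Hdac1 stood at 10.4, 18.4, 15.3, 21.6 and 28.1 CPM with vehicle and 32.5, 23.7, 21.99, 12.5 and 18.8 CPM with Cmpd60 (0.23 ± 0.31, from 0.0416 without s152 to 0.42 without s155). Hdac2 stood at 55.6, 57.5, 68.8, 71.6 and 63.4 CPM and 60.3, 57.9, 62.03, 58.0 and 61.3 CPM (-0.08 ± 0.12). The groups overlapped for both genes, and the 95% interval of Hdac2, -0.33 to 0.17, was narrower than that of Hdac1, -0.41 to 0.86. Of 28 genes of HDAC1/2 and their complexes, 12 were higher and 16 lower (median -0.04, 0.01 without both), with Hmg20b of CoREST at p below 0.05 (-0.71) and the remodeller genes Chd3 and Chd4 at -0.08 and -0.09. The other zinc-dependent HDAC genes split 5 higher and 4 lower of 9 (median 0.01, 0.01 without both; Hdac5 -0.14, Hdac11 0.01), and acetyltransferases and bromodomain readers 6 higher and 6 lower of 12 (median -0.01, -0.04 without both; Brd2 0.01, Ep300 -0.16), all with p above 0.05. Genes that HDAC inhibitors raise in cultured cells were 5 higher and 2 lower of 7 (median 0.04, 0.10 without both), with Clu at 0.04 and the metallothionein gene Mt1 at -0.07, and 0 of them had p below 0.05.

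Lists of activity, stress and plasticity genes had medians from -0.15 to 0.17 over all 10 libraries. Immediate early genes, which neurons switch on with activity, were 12 higher and 8 lower of 20 (median 0.06, 0.14 without both). At 10 CPM or more, 10 were higher and 5 lower (median 0.125). Jund and Homer1 both differed by 0.06. Genes of the glucocorticoid response were 7 higher and 10 lower of 17 (median -0.05, 0.02 without s152 and s155 and 0.07 without s153), with Klf9 at 0.15 and Per1 at -0.13. Neurotrophins and their receptors were 7 higher and 2 lower of 9 (median 0.08, 0.09 without both), with the BDNF receptor gene Ntrk2 at 0.08 and Sort1 at 0.05. In none of these 3 lists did a gene reach p below 0.05 in edgeR. Interferon-stimulated genes were 8 higher and 4 lower of 12 (median 0.17, -0.09 without s152 and s155 and -0.04 without s152), of which 2 reached 10 CPM, Stat2 (-0.26) and Ifi27 (0.00). Genes of amyloid precursor processing and tau were 5 higher and 10 lower of 15 (median -0.02, 0.00 without both; App -0.02, Apoe -0.02). The 4 genes that the study named for cognition, chosen there on these samples and so not independent evidence, were all lower (median -0.15, -0.02 without s152 and s155), with Ncam1 at -0.08 and Cyfip1 at -0.14. For Pla2g6 the values behind its -0.65 were 1.26 CPM in s152, 41.9 in s155 and 14.9 to 27.1 in the others.

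All 12 striatal genes were lower with Cmpd60 (median -0.21, -0.17 without both), Rgs9, a regulator of dopamine signalling, with p below 0.05 and the other 11 with p above it. Their summed level was 963, 1543, 1104, 857 and 1169.6 CPM with vehicle and 851, 961, 884, 1271 and 856 CPM with Cmpd60. Vehicle library s150 and Cmpd60 library s157 were the highest of their groups, and the median was -0.08 without s150 and -0.38 without s157. The most abundant members, the dopamine signalling gene Ppp1r1b and the enkephalin gene Penk, differed by -0.25 and -0.27. Hypothalamic peptide genes were 3 higher and 11 lower of 14 (median -0.34, -0.09 without s152 and s155), from 150.3 (s149) to 219 CPM (s155) summed, with somatostatin (Sst) at -0.08 and Pmch at -0.75; Hcrt and Otp had 0 counts in s152 and s155. Cortical and hippocampal genes were 7 higher and 5 lower of 12 (median 0.03, 0.12 without both; Camk2a 0.06, Slc17a7 0.07). Thalamic genes were 2 higher and 4 lower of 6 (median -0.06, -0.08 without both, Slc17a6 -0.01), with Prkcd at -0.18 and -0.53 without s152 and s155. Whether the dissected tissue differed in region between libraries was not tested.

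Cerebellar genes were 7 higher and 5 lower of 12 (median 0.05, -0.05 without s152 and s155; Itpr1 0.09, Rgs8 0.11). Brainstem and spinal cord genes were 7 higher and 3 lower of 10 (median 0.20, -0.03 without s152 and s155), with the serotonergic genes Tph2 (-1.19) and Slc6a4 (-1.57) lower at p below 0.05 and the glycine transmission genes Slc6a5 and Glra1 at 0.26 and 0.15. Only 3 of the 10 had a mean of at least 10 CPM, 2 higher (Slc6a5 and Glra1) and 1 lower. At least 1 of Tph2 and Slc6a4 therefore lay below 10 CPM. Olfactory bulb genes were 3 higher and 2 lower of 5 (median 0.28, 0.60 without both, -0.27 without s158), with sums from 10.1 (s149) to 67.8 CPM (s158); Cdhr1 differed by 0.28 and Eomes by -0.06. Choroid plexus genes were 9 higher and 5 lower of 14 (median 0.18, -0.08 without s152 and s155), with the transthyretin gene Ttr at 473 to 1096 CPM (-0.09) and Kl at 0.16. The part of these lists in other differences was not tested.

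Markers of brain cell types gave medians between -0.08 and 0.10 over all listed genes that were tested. Neuronal genes were 8 higher and 4 lower of 12 (median 0.04, 0.05 without both), with Snap25 higher by 0.15 ± 0.06 and Syt1 by 0.10. Oligodendrocyte and myelin genes were 6 higher and 9 lower of 15 (median -0.03, -0.01 without both; Mbp -0.02), and their precursors' genes 3 higher and 3 lower of 6 (median 0.02, -0.04 without s152 and s155; Pdgfra 0.10, Bcas1 -0.07). Microglial genes were 5 higher and 7 lower of 12 (median -0.08, -0.04 without both, above 0 with limma-voom alone), Tmem119 with p below 0.05 (-0.62) and Csf1r at 0.10. At 10 CPM or more, 2 microglial genes were higher and 6 lower (median -0.18). Endothelial and mural genes were 8 higher and 4 lower of 12 (median 0.10, -0.02 without s152 and s155; Flt1 0.14, Rgs5 -0.01). Ependymal genes were 2 higher and 4 lower of 6 (median -0.05, -0.19 without both, below 0 in 19 of 26 other settings; Foxj1 0.33, Rarres2 -0.07), and meningeal fibroblast genes 5 higher and 3 lower of 8 (median 0.05, 0.28 without both and above 0 in 21 of 26 other settings; Ptgds 0.10, Col1a2 -0.22).

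**Figure D3:**
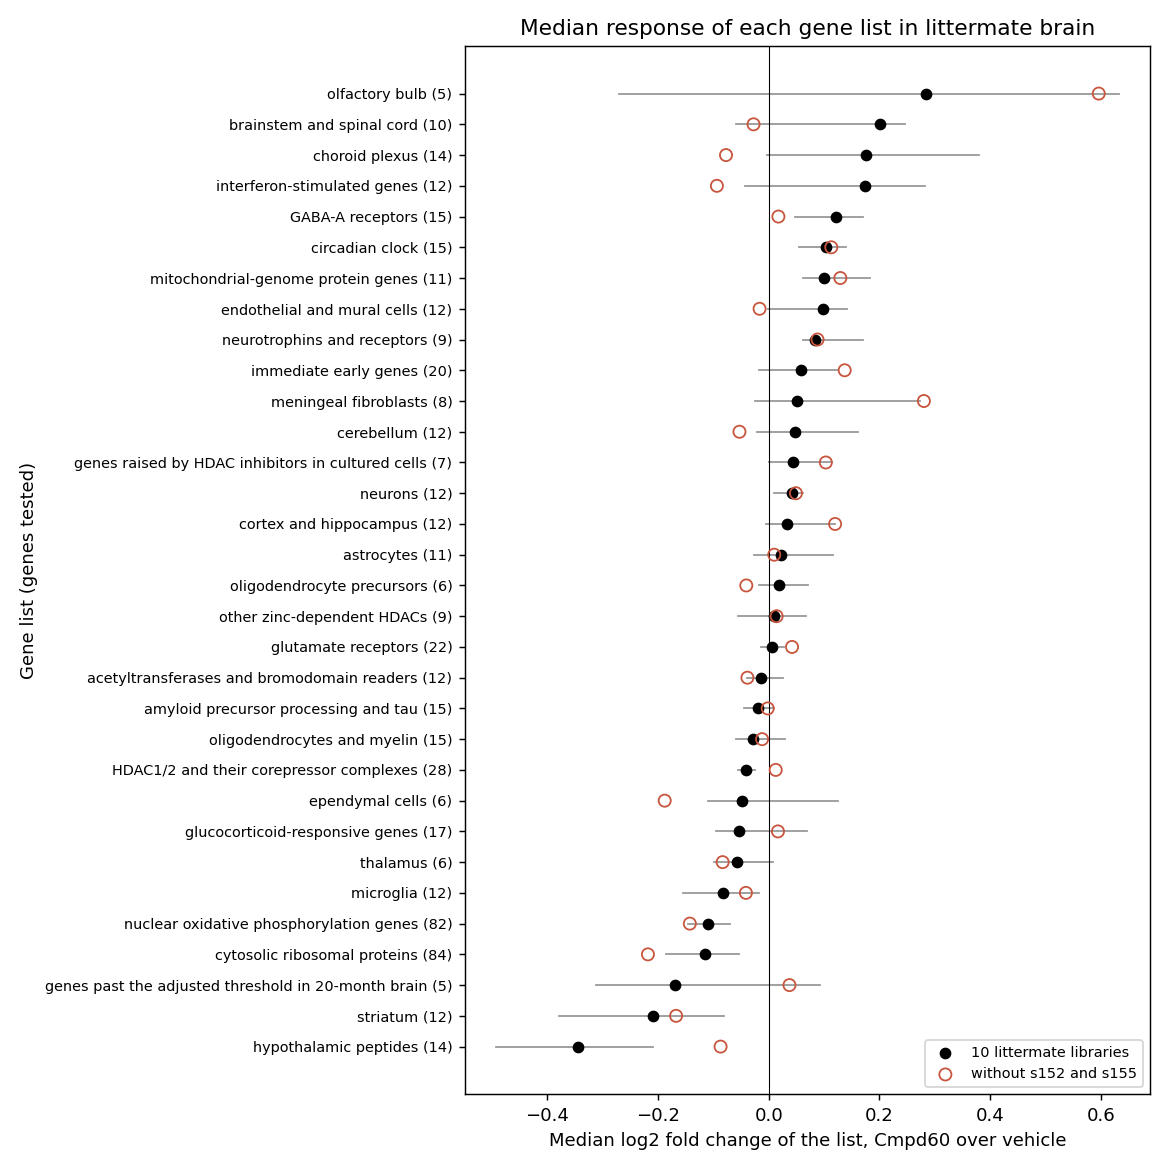
Median log2 fold change (x axis, Cmpd60 over vehicle) of each gene list with at least 5 genes tested, with the number tested in brackets; filled points use all 10 littermate libraries, open points leave out s152 and s155, and grey lines span the fits that each left out 1 library. The nuclear oxidative phosphorylation (-0.11) and cytosolic ribosomal (-0.11) lists lie below 0 throughout, while brainstem, choroid plexus and interferon lists cross 0; the pituitary hormone list (1.41) lies off the scale and is not drawn.

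Genes of red blood cells were also uneven between libraries. Of the red blood cell list, 3 of 5 genes matched the files, and their sum was 324, 84.4, 113, 85.3 and 30.9 CPM with vehicle and 216, 474, 145.4, 203 and 139.1 CPM with Cmpd60. Library s153 was highest in the Cmpd60 group and s149 in the vehicle group, and the groups overlapped. Hba-a1, the most abundant, differed by 0.89 ± 0.40, from 0.46 without s153 to 1.63 without s149, with p below 0.05 in edgeR and below 0.01 in limma-voom, and Alas2, of haem synthesis, by 0.97 ± 0.48. Whether Hba-a1 shares reads with Hba-a2 was not checked. The 3 genes were 2 higher and 1 lower (median 0.89, 0.65 without both). Their part in other differences was not tested.

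Hormone genes of the pituitary, a gland attached to the base of the brain, were seen at very different levels within each group. Growth hormone (Gh) stood at 3.79, 0, 48.1, 0.736 and 49.9 CPM with vehicle and 0, 0, 6.16, 332 and 0.757 CPM with Cmpd60. Pomc, the precursor of corticotropin, stood at 7.91, 2.13, 43.5, 1.09 and 85.5 CPM and 2.28, 1.34, 3.72, 200.3 and 1.01 CPM, and prolactin (Prl) at 0.0368, 0, 5.72, 0.0388 and 9.29 CPM and 0, 0, 0.693, 46.2 and 0.252 CPM. The same 3 libraries, s157, s155 and s151, were highest for each of these genes, and a value of 0 allows up to 0.0789 to 0.121 CPM (3 counts, counting error alone). Cga, the shared glycoprotein hormone subunit, reached 7.62 CPM and Fshb 2.91 CPM in s157, and Tshb had 0 counts in 8 libraries and was not tested. Log2 fold changes were 1.73 ± 1.52 (Gh), 1.64 ± 1.87 (Prl), 1.41 ± 1.88 (Cga), 0.57 ± 1.13 (Pomc) and 0.30 ± 2.03 (Fshb), all 5 higher (median 1.41, 2.30 without both, above 0 in 21 of 26 other settings), and 0 of them had p below 0.05. Without s157 the Pomc log2 fold change was -3.75, with p below 0.01 in that fit, and the list median -3.63. On the log2 scale of summed CPM plus 1, the groups differed by -0.70 (3.49 ± 3.32 with Cmpd60, 4.19 ± 2.64 with vehicle, SD, n = 5; two-sided exact permutation p = 0.738), by -2.13 without s157, by 0.0505 without s155 and by 0.49 without s152 and s155.

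Transcription factors and receptors that define pituitary cells were near 0 throughout: the 7 genes summed to 1.73, 1.87, 2.84, 1.01 and 0 CPM with vehicle and 0, 1.62, 3.65, 5.11 and 1.599 CPM with Cmpd60, highest in s157. Pou1f1, Tbx19, Ghrhr and Gnrhr were too low to be tested, and in s152 and s155 all 7 had 0 counts. Among those tested, Pitx1 differed by 1.41 and Lhx3 by -0.66. Hormone sums in other brain libraries of the series were 0 to 88.5 CPM (median 4.32) in APPSWE brain and 1.29 to 616 CPM (median 3.62) in 20-month brain. With the hormone sum as a covariate, 31 genes of at least 10 CPM had p below 0.01 in edgeR, all of them among the 44, and without s151, s155 and s157 there were 101, with 22 among the 44. The part of pituitary tissue in other differences was not tested.

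A few genes of low or middling level fell into separate classes of animals. Rpl29 (ENSMUSG00000048758), a ribosomal protein gene, stood at 0.625, 0.447, 0.639, 1.71 and 0 CPM with vehicle and 0, 20.5, 0.438, 21.8 and 20.8 CPM with Cmpd60. Libraries s153, s157 and s158 were at about 20 CPM and the other 7 at or near 0, so the groups overlapped. The log2 fold change was 4.22 ± 0.90 (edgeR adjusted p = 0.526, and from 0.000357 with no filter on low counts to 0.99998 with limma-voom). Whether it shares reads with related genes was not checked. In APPSWE brain Rpl29 stood at 16.5 to 103 CPM and in 20-month brain at 43.1 to 58.2 CPM, above all 10 littermates in 20-month brain.

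The gene ENSMUSG00000094446, with no symbol matched, had the smallest p of all genes tested (adjusted p = 0.131, log2 fold change 4.89 ± 0.88 in edgeR), at 0.0368, 0.131, 0.178, 0.155 and 0.0402 CPM with vehicle and 0.154, 4.72, 0.109, 4.23 and 7.63 CPM with Cmpd60. Gm10709, a pseudogene, stood at 0, 0, 0.0355, 0.116 and 0.121 CPM and 0, 2.87, 0, 4.31 and 3.14 CPM. Both were high in s153, s157 and s158, the libraries with Rpl29, and both were above 1 CPM in all 22 libraries of the APPSWE and 20-month cohorts. Whether either shares reads with Rpl29 or other related genes was not checked, so their counts are uncertain. They were chosen after their values were seen, as was Hjurp, a histone chaperone of centromeres. Hjurp stood at 66.04, 63.9, 69.0, 68.5 and 30.9 CPM with vehicle and 55.3, 14.3, 19.4, 63.98 and 15.6 CPM with Cmpd60, low in s153, s156 and s158 and intermediate in s155. Its log2 fold change was -0.82 ± 0.38 (edgeR adjusted p = 0.9997) and -1.24 without s152 and s155, with p below 0.01 there. With library weights in limma-voom it was the 1 gene past the threshold (adjusted p = 0.00646), while its DESeq2 adjusted p was 1. The adjusted p of ENSMUSG00000094446 was 0.0450 without s152 and s155, 0.00793 without s152, 0.00902 without s156 and 0.000551 with no filter on low counts, between 3.4e-06 with DESeq2 and 0.99998 with limma-voom. It was also among the 8 genes that DESeq2 called, all higher, with Aqp4, Gm10709, Gm12630, Gm13713, A930006I01Rik, Fam166a and ENSMUSG00000108507; of these Aqp4 alone reached 10 CPM. Gm12630, Gm13713, A930006I01Rik, Fam166a and ENSMUSG00000108507 had 0 counts in all 5 vehicle libraries and means below 0.1 CPM. Fam166a was called on 2 counts in s153 and 1 in s157, and ENSMUSG00000108507 on 1 count in s157, so these DESeq2 calls rest on few reads. Inherited differences between the animals were not tested.

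**Figure D4:**
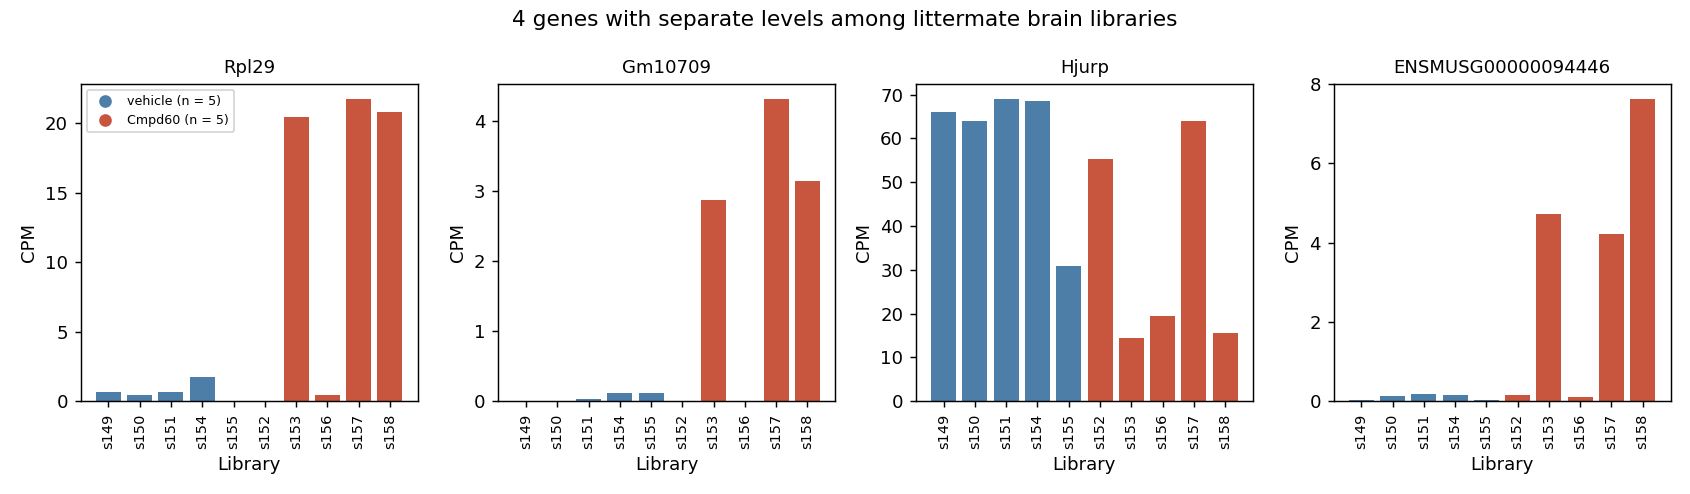
CPM of Rpl29, Gm10709, Hjurp and ENSMUSG00000094446 in each littermate brain library, vehicle blue and Cmpd60 red. Rpl29, Gm10709 and ENSMUSG00000094446 are high in s153, s157 and s158, and Hjurp is below 20 CPM in s153, s156 and s158.

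Differences between this response and that of the other brain cohorts were tested for the named genes. Against APPSWE brain, 0 of 101 had an adjusted p below 0.05 in edgeR (smallest 0.946), and 14 had an unadjusted p below 0.05, beside 1116 of all 23273 genes. Against 20-month brain, 0 of 102 did (smallest 0.315), and 22 had an unadjusted p below 0.05, beside 1263 of all 25868 genes. Since 20 of the named genes were chosen for a small p in littermates, these counts cannot be set against the shares over all genes. For Aqp4 the littermate log2 fold change exceeded that of APPSWE brain by 0.19 and that of 20-month brain by 0.57 ± 0.13 (adjusted p = 0.315). Over all genes, ENSMUSG00000094446 was the 1 gene past the adjusted threshold against 20-month brain (adjusted p = 0.0179). Of the 5 genes past the adjusted threshold in 20-month brain, 2 were higher and 3 lower in littermates (median -0.17, 0.04 without s152 and s155 and 0.09 without s155). Rab26, a small GTPase of vesicle transport, was higher by 0.48 ± 0.21, beside 0.46 in APPSWE and 0.52 in 20-month brain, while Arhgef25 differed by 0.00, beside 0.33 in 20-month brain.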

How the data were processed

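Brain RNA of 10 control littermates was described. The authors trimmed the reads (Trimmomatic 0.32), aligned them (HISAT2 2.1.0; genome build not given in the sources used here) and counted them per gene with read direction (HTSeq 0.11.0); the deposited values are raw counts for 54232 Ensembl genes, of which 32651 matched a symbol. Rows that name no gene (no feature, ambiguous, low quality, not aligned, not unique) were left out, so that 81.3% to 83.3% of counted reads remained. Members, lists and tests were chosen with earlier results of these data known. Genes were kept when 3 or more of the cohort's 20 libraries each held over 2 counts, and were fitted with edgeR 4.0.16 (TMM, quasi-likelihood, 1 term per group, Benjamini-Hochberg) in R 4.3.3; DESeq2 1.42.0 and limma-voom 3.58.1 were alternatives. The edgeR, DESeq2 and limma-voom tests of the littermate comparison were tested on simulated counts, and the permutation test on values with a known p. Other steps were not tested in this way. The simulated libraries shared the same mean levels, without the loss of genes seen in s152 and s155. CPM used TMM library sizes; ± is SE for fold changes and SD for levels. Named genes were up to 10 in each direction by smallest p below 0.01 at a mean of at least 10 CPM, Hdac1, Hdac2, the pituitary hormone genes, of each list the 2 most abundant genes and any with p below 0.01, and Rpl29. Other genes given were chosen after their values were seen. Lists were described by counts and medians. Listed genes not matched were Lhb, Hbb-bs, Hbb-bt, H1f0 and Bmal1; Tshb, Pou1f1, Tbx19, Ghrhr, Gnrhr, Ndufa11b, mt-Atp8, Rpl10l and Rpl39l were too low to test. APPSWE library s139 is vehicle by its labels and compound in a table of the paper; it was kept as labelled. No pair of libraries was alike within counting error (smallest chi-square per degree of freedom 18.5). Alternatives without s152 and s155, without libraries under 17000 genes, without s151, s155 and s157, and with library weights were added after the data were seen.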

Additional observations from a re-analysis of the deposited data

Results flagged for a closer look

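A library was marked where its gap to the nearest other library of its group took an unusually large share of the group's range. Of 132 sets of 5 values looked at, 15 were marked. Chance marks about 1 in 20 only where sets are independent and normally spread. These sets come from the same libraries, so 15 of 132 cannot be set against that rate. In the Cmpd60 group, s157 stood above the rest for summed pituitary hormone genes (share of the range 0.984) and for striatal genes (0.738). Library s152 was highest for ependymal genes (0.878), interferon-stimulated genes (0.735) and Bhlhe41 (0.731), and lowest for the cognition genes (0.760). Library s153 was highest for red blood cell genes (0.770). In the vehicle group, s150 had the highest total counts (0.811) and glucocorticoid-responsive genes (0.765), s151 the lowest cortical and hippocampal genes (0.810), and s149 the highest red blood cell (0.720) and mitochondrial-genome genes (0.781) and the lowest nuclear oxidative phosphorylation genes (0.762). Library s155 had the highest percentage of reads not aligned (0.894) and the lowest Tbpl1 (0.732).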

How the results depend on the processing

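The count of genes past the adjusted threshold was 0 in the 20-library edgeR fit and in 19 of 26 other settings. It was 8 with DESeq2 (5 of them below 0.1 CPM), 2 with no filter on low counts, 1 without s152 and s155, 1 without the libraries under 17000 genes and 1 with library weights (Hjurp), and 0 to 2 with 1 library left out. Genes with p below 0.01 (94) numbered 183 with no filter, 42 with a fit of genes of at least 10 CPM (fewer genes tested), 200 with genes detected as a covariate, 56 with the pituitary level as a covariate, 26 without s152 and s155 and 322 with library weights, and 42 (without s155) to 157 (without s157) with 1 library left out; s150 (60), s152 (59), s153 (62) and s154 (60) also moved it by over 1.5 times. At 10 CPM or more (44), they numbered 86 with DESeq2, 67 with no filter, 29 with the 10 littermate libraries alone (fewer samples), 76 with genes detected as a covariate, 15 without s152 and s155, 72 without the libraries under 17000 genes, 101 without s151, s155 and s157 and 87 with weights, and 21 (without s155) to 116 (without s157) with 1 library left out. The split of 26 higher and 18 lower was 21 and 24 with DESeq2 size factors, 39 and 47 with DESeq2, 20 and 22 with only genes of at least 10 CPM fitted, 26 and 46 without the libraries under 17000 genes, and 24 and 4 without s153. The difference of 1954 in genes detected kept its direction with 1 library left out, from 761.55 (without s155) to 3624 (without s152). It was 203.2 when genes with at least 10 counts were taken. The hormone difference of -0.70 was 0.49 without s152 and s155 and ran from -2.13 (without s157) to 0.0505 (without s155). The Pomc log2 fold change of 0.57 ran from -3.75 (without s157) to 1.61 (without s155). Of 2612 values for named genes in other settings, 122 lost and 13 gained p below 0.01, and 167, over 41 genes, had the opposite sign. Of 961 list medians in other settings, 100 had the opposite sign, over 26 of the 37 lists. The cause was not tested. No paired analysis was possible because the groups share no replicate numbers.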
